A study of Mus musculus with 40 samples.

Results

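Exonic fragments away from promoters are pieces of open chromatin cloned into an enhancer reporter whose centre lay in an exon of a curated RefSeq transcript and more than 1500 bp from every curated transcription start site. They were chosen by position alone, without any reporter value. There were 21998 such fragments among 354627 different fragments, or 6.32% of the 348114 fragments that lay more than 1500 bp from a start site (called distal here). Coding sequence held 13343 of them (60.7%), 3′ untranslated regions 6039 (27.5%), exons of non-coding RNAs 1945 (8.84%) and 5′ untranslated regions 671 (3.05%).

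The screen used HM-1 mouse embryonic stem cells of strain 129/ola, in which the Hprt locus does not work and is repaired when the reporter integrates, so that every group carried the same single-copy cassette with an HSP68 minimal promoter and a Venus-YFP reporter at that locus. Fragments cut by Tn5 from the open chromatin of 5 stages were cloned, mixed and put into the stem cells, which were left as embryonic stem cells (ES) or differentiated in culture into hemangioblast cells (HB, selected for FLK1), hemogenic endothelium 1 (HE1, KIT+ TIE2+ CD41-), hemogenic endothelium 2 (HE2, KIT+ TIE2+ CD41+) and hematopoietic progenitors (HP, KIT+ TIE2- CD41+). At each stage cells were sorted by YFP into Negative, Low, Medium and High gates, with 2 replicates, giving 20 groups and 40 libraries. A sort is 1 stage of 1 replicate, and there were 10. A fragment is called positive in a sort if any of the 3 YFP gates above Negative held it, and negative if the Negative gate did, so the same fragment can be both. Each library is a list of different fragments without read counts, so 1 fragment counts once however often it was read.

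An exon is the part of a gene kept in the mature RNA, and its sequence is under constraint from the protein it encodes or from the regulation of the transcript. Enhancers are stretches of DNA that bind transcription factors and raise the activity of a promoter from a distance, and most are found in introns and between genes. Some exons also lie in open chromatin and are bound by transcription factors, and such a sequence can act on its own gene or on a neighbour.

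The coding fragments found in the most libraries are shown first, among those of at most 300 bp. At most 1 was taken per gene, and 1 chromosome was left out of this choice. They were read from the forward strand of GRCm38 (mm10) and each lay wholly inside coding sequence. Capitals mark the longest match to a listed motif, and lower case alone means that none of the listed motifs was found.
Slc32a1: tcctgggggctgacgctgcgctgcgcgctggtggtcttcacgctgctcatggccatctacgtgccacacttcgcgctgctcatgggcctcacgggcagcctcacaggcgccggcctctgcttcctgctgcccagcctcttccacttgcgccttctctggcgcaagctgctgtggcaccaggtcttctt
Sptbn4: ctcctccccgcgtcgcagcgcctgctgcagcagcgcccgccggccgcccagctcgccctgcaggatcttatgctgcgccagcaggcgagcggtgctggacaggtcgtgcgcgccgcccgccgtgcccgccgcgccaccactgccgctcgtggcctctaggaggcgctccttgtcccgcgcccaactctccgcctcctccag
Mboat4: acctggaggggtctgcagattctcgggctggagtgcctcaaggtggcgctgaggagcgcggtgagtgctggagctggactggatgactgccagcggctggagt
Dicer1: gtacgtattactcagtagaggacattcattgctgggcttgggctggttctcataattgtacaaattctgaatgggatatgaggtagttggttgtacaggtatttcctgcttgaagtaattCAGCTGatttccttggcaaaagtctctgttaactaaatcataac
Cdh22: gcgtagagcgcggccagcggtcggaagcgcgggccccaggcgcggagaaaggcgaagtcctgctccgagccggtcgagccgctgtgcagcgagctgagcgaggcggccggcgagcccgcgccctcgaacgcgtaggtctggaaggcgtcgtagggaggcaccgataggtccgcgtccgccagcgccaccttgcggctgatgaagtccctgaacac
Vgf: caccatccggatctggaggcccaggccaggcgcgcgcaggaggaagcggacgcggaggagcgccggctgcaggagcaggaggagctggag
The Slc32a1 fragment, at chr2:158614714-158614901, was in 16 libraries, all of replicate 2, and was both positive and negative at all 5 stages. Slc32a1 encodes the vesicular transporter for GABA and glycine. The Sptbn4 fragment, from an internal exon of the gene for a beta spectrin of axons (chr7:27408836-27409036), was in 15 libraries, all of replicate 1, and was positive and negative in 4 sorts each. The Mboat4 fragment, from the gene for the ghrelin acyltransferase (chr8:34124026-34124128), was in 15 libraries, all of replicate 2, and positive and negative at all 5 stages. A fragment in at least 15 libraries of 1 replicate can hardly miss the Negative gates, so its presence in both gate classes follows from how it was chosen. The Dicer1 fragment (chr12:104702726-104702889), from the gene for the enzyme that cuts microRNA precursors, was in 10 libraries, all of replicate 2. It was positive in 4 sorts and negative in 3, and its capitals are an E-box. The Cdh22 fragment (chr2:165112195-165112409), from a cadherin gene, was in 10 libraries, all of replicate 1, positive in 5 sorts and negative in 2. The Vgf fragment (chr5:137032714-137032803), from a neuropeptide precursor gene, was in 10 libraries, positive in 4 sorts and negative in 3. Dicer1 was the exception in base composition, with a GC content of 39.0% against 65.0 to 75.6% in the other 5.

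Among coding fragments with a match to an AP-1, a RUNX or a CTCF motif, those in the most libraries under the same limits are shown next, with the match in capitals.
Zscan22: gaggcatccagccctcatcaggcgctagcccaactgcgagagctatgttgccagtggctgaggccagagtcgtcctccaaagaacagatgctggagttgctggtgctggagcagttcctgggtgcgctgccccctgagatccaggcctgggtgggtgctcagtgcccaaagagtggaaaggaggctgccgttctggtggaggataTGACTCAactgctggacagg
4930407I10Rik: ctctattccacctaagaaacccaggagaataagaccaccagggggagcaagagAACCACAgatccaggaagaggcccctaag
1700020L24Rik: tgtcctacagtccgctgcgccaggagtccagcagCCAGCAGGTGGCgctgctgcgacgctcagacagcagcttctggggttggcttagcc
The Zscan22 fragment (chr7:12903857-12904081) carried an AP-1 match, was positive in ES and HB of replicate 1 and was also negative in ES of replicate 1. The fragment of 4930407I10Rik (chr15:82065674-82065755) carried a RUNX match on the reverse strand and was positive in 3 sorts, ES of replicate 2 and HE1 and HE2 of replicate 1, and negative in 1. The fragment of 1700020L24Rik (chr11:83440467-83440556) carried a CTCF match, and was positive in 4 sorts of replicate 1 and negative in none. It was in the High gate in ES, HB and HE1 and in the Medium gate in HE2. A match is a run of letters and does not show that a factor was bound.

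Exonic fragments made up 6.64% ± 1.01 (SD, n = 40 libraries) of the distal fragments of a library, with a range of 5.27 to 8.96%. Exonic bases make up 2.30% of the mouse genome away from start sites. Libraries held 654 to 51146 fragments and 45 to 2644 exonic ones (median 517), and the smaller lists give wider errors. Replicate 1 libraries held 4869 to 51146 fragments and replicate 2 libraries 654 to 31915, with a mean GC content of exonic fragments of 61.8% and 57.2%. The exonic share of replicate 1 was 6.94% ± 1.23 (SD, n = 20) against 6.33% ± 0.627 (SD, n = 20) in replicate 2. In HE1 of replicate 1, 1555 exonic fragments (68.4% of the negative ones) were also positive, whereas in HP of replicate 1 none of the 561 negative ones was, which by a floor of 3 counts allows a share of up to 0.535%.

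The first question is whether exonic fragments were more or less frequent among positive than among negative fragments. In ES the exonic share was 8.36% of positive and 8.96% of negative fragments in replicate 1 (2257 and 903 exonic fragments), and 6.07% and 5.88% in replicate 2 (544 and 164). In HB it was 8.09% and 7.90% in replicate 1, and 6.36% and 6.52% in replicate 2. The sign thus changed between the replicates at both stages. In HE1 it was 5.79% of positive and 5.60% of negative fragments in replicate 1, and 5.59% and 6.84% in replicate 2. In HE2 it was 5.69% and 5.88% in replicate 1, and 7.04% and 6.65% in replicate 2. In HP it was 6.87% and 6.80% in replicate 1, and 5.96% and 5.79% in replicate 2. The gates overlapped in range, and the positive share was the higher one in 6 of 10 sorts. The mean difference was -0.0988 percentage points, with an SD of 0.490 among the 10 sorts, and did not pass an exact two-sided permutation test within stages (p = 0.809, n = 10 sorts; adjusted p = 0.995 over 5 shares). Without HE1 of replicate 1 the difference was -0.131, and without HE1 of replicate 2, whose difference of -1.25 was the lowest, it was 0.0287. In HE1 of replicate 2 the exonic share was 5.55% in the Low, 6.84% in the Medium and 5.34% in the High library. These libraries held 1757, 183 and 75 exonic fragments, so the positive share of this sort rests mostly on Low. The Wilson 95% intervals drawn in the plot of shares by sort cover counting error only, and take different fragments as independent draws. The insert was amplified by PCR without molecular identifiers, so near-identical fragments may not be independent.

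**Figure D1:**
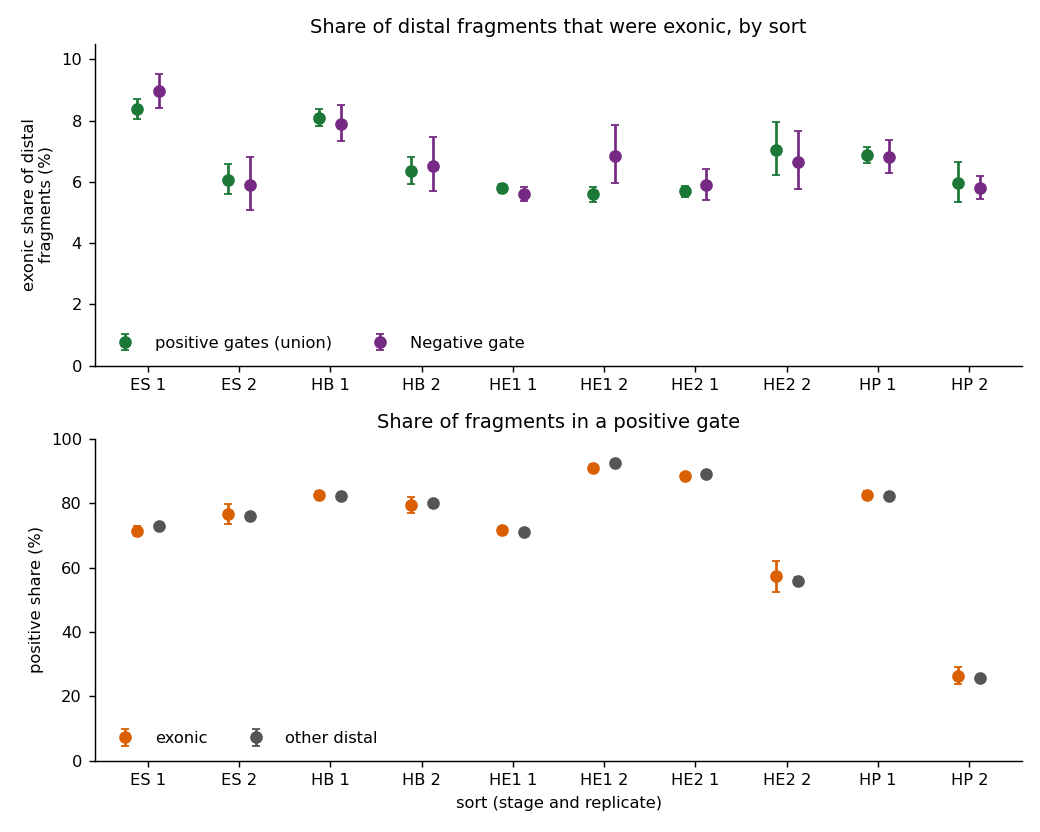
Top, the exonic share of distal fragments (percent) in the union of the positive gates and in the Negative gate of each sort. Bottom, positive over positive plus negative fragments (percent), for exonic and other distal ones, with a fragment in both classes counted on both sides. Points are single sorts and bars are Wilson 95% intervals. The intervals overlap in both panels in all sorts except HE1 of replicate 2 (5.59% and 6.84% on top, 91.1% and 92.7% below), and the positive share itself runs from 26.4% in HP of replicate 2 to 91.1% in HE1 of replicate 2 for exonic fragments.

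The 4 kinds of exon were compared in the same way. Coding exons held 4.01% ± 0.688 (SD, n = 10 sorts) of positive and 4.07% ± 0.754 of negative fragments. For 3′ untranslated regions the shares were 1.89% ± 0.231 and 1.89% ± 0.304, for 5′ untranslated regions 0.183% ± 0.0800 and 0.202% ± 0.0924, and for exons of non-coding RNAs 0.498% ± 0.150 and 0.516% ± 0.232. None of these 4 differences passed the exact permutation test (adjusted p = 0.995 for each, n = 10 sorts). Summed over sorts, 76.8% of coding, 76.9% of 3′ untranslated, 75.9% of 5′ untranslated and 76.7% of non-coding exonic occurrences were positive.

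The positive share of exonic fragments was also set beside that of other distal fragments of the same sort. It is the number of positive fragments over positive plus negative ones, so a fragment in both classes counts on both sides. Where the classes overlap it is lower than the share of different fragments that were positive. Of the negative exonic fragments, 68.4% in HE1 of replicate 1 and 48.3% in HE2 of replicate 2 were also positive. In ES of replicate 1 the positive share was 71.4% for exonic and 72.9% for other distal fragments, and in replicate 2 it was 76.8% and 76.2%. The values were 82.6% and 82.2%, then 79.6% and 80.1%, in HB, and 71.8% and 71.1%, then 91.1% and 92.7%, in HE1. They were 88.7% and 89.0%, then 57.3% and 55.8%, in HE2, and 82.6% and 82.5%, then 26.4% and 25.8%, in HP. The sorts that stood low, HE2 and HP of replicate 2, were low for both kinds of fragment. The mean difference was 0.0105 percentage points (SD 0.987 among sorts, n = 10), and -0.0700 without HE1 of replicate 1. It was above 0 in 6 of 10 sorts. Exact two-sided permutation within stages gave p = 0.997, but it mixes the replicates of a stage. Their exonic positive shares were 82.6% and 26.4% in HP, so this p does not measure the spread of the paired differences. With labels exchanged within a sort, exact permutation gave p = 0.980. Of the different exonic fragments, 16137 (73.4%) were only ever positive, 3364 (15.3%) only negative and 2497 (11.4%) both, beside 73.0%, 14.8% and 12.1% of other distal fragments.

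Between stages the exonic share of positive fragments did not differ beyond the spread of replicates. The mean of the 2 replicates was 7.22% in ES and in HB, 5.69% in HE1, 6.37% in HE2 and 6.41% in HP. The highest and lowest stage differed by 1.53 percentage points, which did not pass (exact test over all pairings of the sorts, p = 0.570, n = 10 sorts). Between the High and the Low gate the share was 6.66% ± 1.04 and 6.46% ± 0.966 (SD, n = 10), a difference of 0.201 (exact permutation p = 0.612). It was 0.687 in replicate 1, where High was above Low in 4 of 5 stages, and -0.285 in replicate 2, where it was above in 2 of 5; with 5 sorts the smallest p an exact test can reach is 0.0625.

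Base composition did separate exonic from other distal fragments, in every sort. The GC content of exonic fragments was between 61.5% and 62.3% in the 5 sorts of replicate 1 and between 56.5% and 57.1% in those of replicate 2. That of other distal fragments was between 54.5% and 56.3%, and between 48.5% and 50.0%. The exonic value was higher in 10 of 10 sorts, by 6.87 percentage points ± 0.685 (SD; 59.3% against 52.4%, exact two-sided permutation p = 0.000257, n = 10 sorts). Sorts of the same replicate shared fragments, so the 10 sorts may not be independent units, here and in the tests of CpG, GENCODE starts and motifs. Among the exonic kinds the pooled mean was 63.3% in coding exons and in 5′ untranslated regions, 58.0% in non-coding exons and 55.9% in 3′ untranslated regions. For scale, exonic bases of the genome away from start sites are 47.3% GC and other bases 41.3%.

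CpG dinucleotides were also closer to the number expected from base composition. The ratio of observed to expected CpG was 0.482 ± 0.0847 (SD, n = 10 sorts) in exonic and 0.272 ± 0.0587 in other distal fragments, higher in 10 of 10 sorts (exact permutation p = 0.000257). By kind of exon it was 0.629 in coding exons, 0.700 in 5′ untranslated regions, 0.472 in non-coding exons and 0.310 in 3′ untranslated regions. Exonic fragments were longer, with a median of 220 bp (mean over sorts) against 196.5 bp. They were longer in 10 of 10 sorts, by 5 to 39.5 bp, which passed an exact permutation test that exchanged labels within a sort (p = 0.00195, n = 10) but not the one that exchanged them within a stage (p = 0.278). Within exonic fragments, GC content differed by 0.261 percentage points between positive and negative (SD of the differences 0.664, n = 10 sorts). Median length differed by 9 bp (SD 39.1). Exact permutation within stages gave p = 0.764 for GC content and 0.704 for length. It mixes replicates whose positive exonic fragments had a GC content of 61.8% and 56.9%, so its p does not measure the spread of the paired differences. The GC difference was above 0 in 6 of 10 sorts, and was 0.194 in replicate 1 and 0.328 in replicate 2. The difference in length was -10.6 bp in replicate 1 and 28.6 bp in replicate 2.

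**Figure D2:**
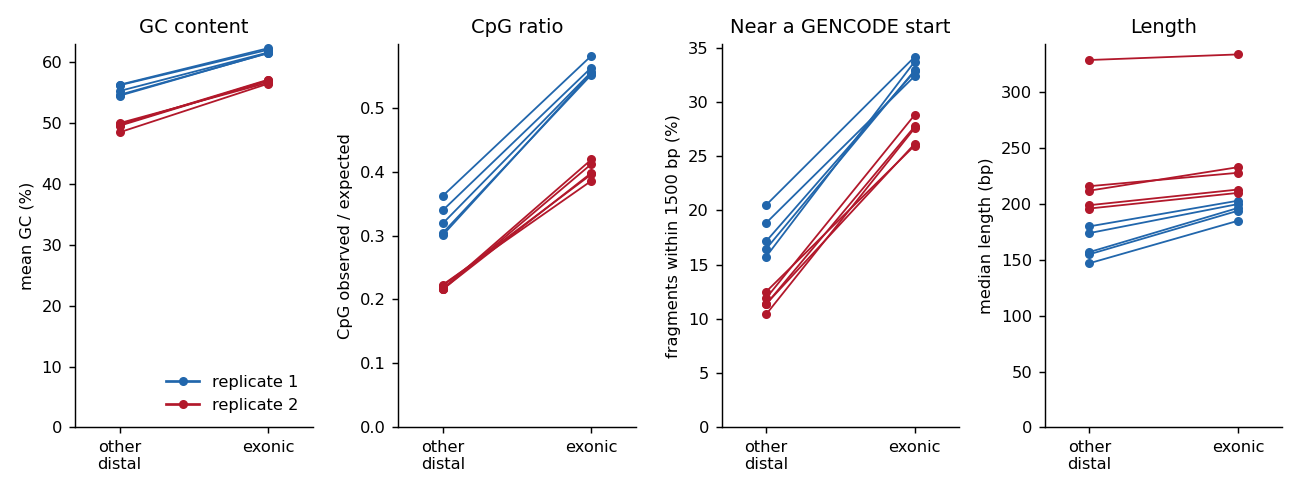
Mean GC content (percent), ratio of observed to expected CpG, share of fragments within 1500 bp of a GENCODE transcript start (percent) and median length (bp) of other distal and exonic fragments. Each line joins the 2 values of 1 sort, in blue for replicate 1 and in red for replicate 2. All 40 lines rise toward the exonic side, and the replicates form separate bands.

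Many exonic fragments lay near a transcript start that the curated RefSeq set does not hold. The rule left out fragments within 1500 bp of a curated start, yet 30.2% ± 3.27 (SD, n = 10 sorts) of exonic fragments lay within 1500 bp of a start in the wider GENCODE annotation, against 14.6% ± 3.56 of other distal fragments. The share was higher in 10 of 10 sorts (exact permutation p = 0.000257). In the genome away from curated starts, 16.7% of exonic and 5.68% of other bases lie that near to a GENCODE start. By kind of exon the share was 68.7% in 5′ untranslated regions, 39.3% in coding exons, 27.4% in non-coding exons and 14.3% in 3′ untranslated regions. With such fragments left out, the exonic share differed between positive and negative by -0.0931 percentage points. At the threshold itself there were 68 exonic fragments within 500 bp inside it, nearer to a curated start, and 1820 within 500 bp outside it, with 77.8% and 75.5% of their occurrences positive. The methods describe a separation of promoter from distal fragments, but whether and how it was applied to these lists is not stated per list, so the step at the threshold cannot be told apart from the authors' filter. The median distance from a curated start was 7446.5 bp.

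Within the gene, 12235 exonic fragments (55.6%) had their centre in a last exon, 9170 (41.7%) in an internal exon, 459 (2.09%) in the exon of a single-exon gene and 134 (0.609%) in a first exon. The distance rule leaves out exonic positions near starts, where first exons lie, so the small share of first exons follows in part from the choice. Where transcripts differed, a last exon was taken before an internal, a first and a single one. Exons that held the fragments had a median length of 1019 bp, and 50.9% of the fragments were in exons over 1000 bp. The longest exon over transcripts was taken, and neither exon place nor length was set beside the exons of the genome. In all, 14118 fragments (64.2%) lay wholly inside exonic sequence and the others ran past an exon edge. Chromosome 7 had the highest share of its distal fragments in exons (10.7%, 2404 fragments), followed by chromosome 17 (8.42%) and chromosome 8 (7.44%), and chromosomes 13 and X had the lowest (3.56% and 3.62%).

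Motif content followed the exon too. The motifs were runs of fixed letters, searched on both strands, with CTCF given by its name; RBPJ and TEAD matches can overlap, since both hold GGAA. AP-1 matches (searched as TGAGTCA) were at 0.211 ± 0.0392 per kb in exonic and 0.411 ± 0.158 per kb in other distal fragments (SD, n = 10 sorts; adjusted exact permutation p = 0.00189), lower in 10 of 10 sorts. Matches to AGATAAG, a site of the GATA family, were at 0.0757 and 0.220 per kb (adjusted p = 0.00141 by the same exact test, lower in 10 of 10). SOX matches (ACAAAGG and ACAATGG) were at 0.244 and 0.429, and those to the OCT site ATGCAAAT at 0.0128 and 0.0550 (adjusted p = 0.00141 each, exact permutation, n = 10).

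RUNX, TEAD, RBPJ and PU.1 matches were lower in exonic fragments as well. RUNX (TGTGGTC and TGTGGTT) was at 0.312 and 0.450 per kb, TEAD (GGAATGC and GGAATGT) at 0.220 and 0.348, RBPJ (TGGGAA) at 0.884 and 1.10, and PU.1 (GAGGAAGT) at 0.0872 and 0.127 (adjusted exact permutation p = 0.00170, 0.00141, 0.00283 and 0.0409, n = 10 sorts). The E-box CAGCTG went the other way, at 1.06 against 0.833 per kb, higher in 10 of 10 sorts (adjusted p = 0.0170, exact permutation). CTCF was at 0.185 and 0.186 per kb (adjusted p = 0.994, exact permutation), and C/EBP (TTGCGCAA) did not pass either, with few matches (35 exonic fragments). As a share of different fragments, 4.43% of exonic and 8.68% of other distal fragments held an AP-1 match, and 20.5% and 15.3% an E-box. Between positive and negative exonic fragments none of the 11 motifs passed; AP-1 was in 4.04% ± 0.990 and 4.19% ± 0.981, RUNX in 6.76% ± 2.13 and 6.61% ± 1.87 (SD, n = 10 sorts), and the lowest unadjusted exact p was 0.302. Exonic fragments were richer in GC, and the part of base composition in the motif counts was not tested.

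**Figure D3:**
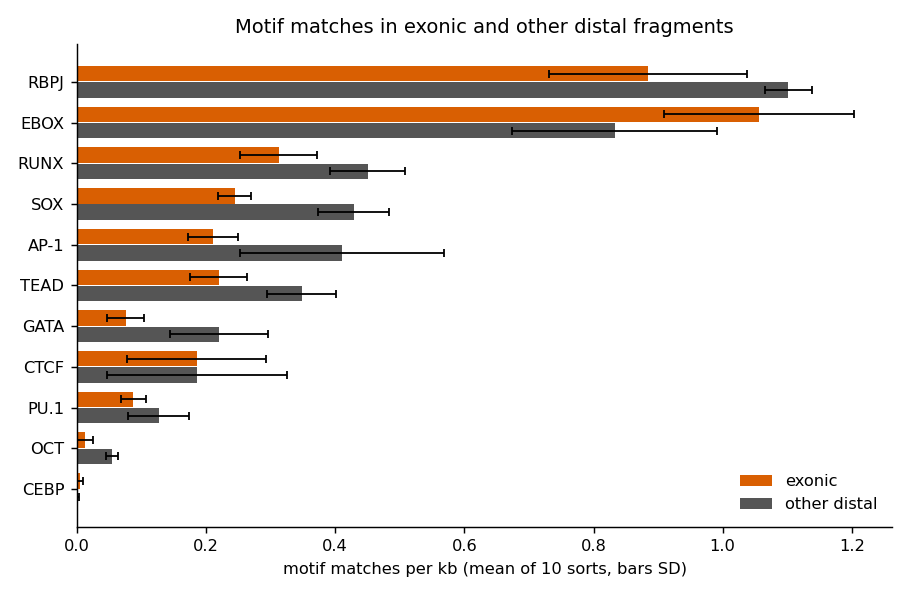
Matches per kb of 11 motifs in exonic and other distal fragments; bars are means of 10 sorts and whiskers the SD. The E-box bar is longer for exonic fragments (1.06 against 0.833), the AP-1, GATA, SOX, OCT, TEAD, RUNX, PU.1 and RBPJ bars are shorter, and the CTCF bars are level.

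The fragments fell in 3639 of 26180 curated genes. Of these, 1655 genes had a single exonic fragment, and 288 genes with at least 20 held 50.9% of all exonic fragments. The number of genes with a positive exonic fragment was 1257 in ES, 1514 in HB, 2051 in HE1, 1170 in HE2 and 1094 in HP. These counts were not adjusted for list size. Positive distal fragments in replicates 1 and 2 numbered 26984 and 8958 in ES, 38077 and 12127 in HB, and 99894 and 34514 in HE1. In HE2 there were 67098 and 3437, and in HP 38816 and 5166. Genes found positive in both replicates of a stage were fewer, 114 (9.07% of the positive genes), 171 (11.3%), 250 (12.2%), 42 (3.59%) and 60 (5.48%). Genes with a negative but no positive exonic fragment numbered 170 (11.9% of the genes found at that stage), 107 (6.60%), 63 (2.98%), 99 (7.80%) and 535 (32.8%) in the same order. Taken within replicate 1 alone these were 110, 60, 44, 53 and 71 genes, and within replicate 2 alone 85, 77, 44, 71 and 611, so the HP count rests on replicate 2, whose Negative library held 14818 distal fragments against 5166 positive ones. In all, 442 genes (12.1%) were positive at all 5 stages. Identical fragments found in both replicates numbered 292 among exonic fragments (1.33%) and 3009 among other distal ones (0.923%). A pair of libraries of the same replicate number shared on average 13.6% of the exonic fragments of the smaller one, and libraries of different numbers 1.07%.

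The 20 genes with the most exonic fragments held 2023 of them (9.20%), and 12 of these genes had every exonic fragment in a single region of overlapping fragments. All 20 were positive at all 5 stages, beside 12.1% of all genes with an exonic fragment. This follows largely from the choice of genes with many fragments. The first was Gm10789, a non-coding RNA gene with 172 fragments at chr16:90143578-90144619. It had 156 positive and 60 negative occurrences, where the share of each sort over all exonic fragments gives 169.3 ± 5.86 (SD) positive ones. In replicate 1 its positive and negative counts were 18 and 8 in ES, 20 and 12 in HB, 49 and 23 in HE1, 41 and 9 in HE2, and 23 and 5 in HP, and replicate 2 added 5 and 3 in all. Sptbn4 followed with 131 coding fragments in 6 regions and 142 positive against 38 negative occurrences (139.4 expected). A430078I02Rik, a non-coding RNA gene, had 118 fragments and 124 against 40 (125.9 expected), and was positive in 10 of 10 sorts.

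Cacna1a, which encodes the pore of a neuronal calcium channel, had 117 coding fragments and 133 positive occurrences against 126.4 expected. Cntnap1, an axonal adhesion protein gene, had 114, nearly all in its 3′ untranslated region, and Unc13a, a gene of synaptic vesicle priming, had 102 in coding and 3′ untranslated sequence. Hes7, the oscillating repressor of the somite clock, had 92 fragments at chr11:69122016-69123126 with 92 positive and 24 negative occurrences (91.1 expected). Rax, a homeobox gene of the eye field, had 83 fragments and 81 positive against 16 negative occurrences (77.5 expected).

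Notch4, the Notch receptor of endothelium, had 80 coding fragments, 79 of them at chr17:34586947-34588081. Its positive and negative counts in replicate 1 were 7 and 5 in ES, 9 and 1 in HB, 23 and 15 in HE1, 13 and 3 in HE2, and 13 and 2 in HP, and in replicate 2 it had 9 positive and 0 negative ones. In all it had 74 positive occurrences where 78.6 ± 4.02 (SD) were expected. Kank3, an ankyrin repeat protein gene, had 110 coding fragments at chr17:33817179-33818121 and 97 positive occurrences against 104.8 expected. Tnip1, whose product binds the NF-kB inhibitor A20, had 82, all in a 5′ untranslated region and with a median of 18 bp to a GENCODE start. Of the 20 genes with most exonic fragments, 9 had a median within 1500 bp of a GENCODE start. Besides Tnip1 these were Chadl (68 bp), Spaca6 (114), Hes7 (184.5), Gm10789 (258), Kank3 (295.5), 1700020L24Rik (383), Notch4 (422.5) and Cacna1a (456).

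The other 9 genes were Zfp771 (109 exonic fragments), Spaca6 (103), Tnk2os (100), 1700020L24Rik (97), Slc43a2 (92), 1700066B19Rik (88), Gm20556 (80), Srcin1 (77) and Chadl (76), the last of which shared its number with Kdm6b. Over the 20 genes the ratio of observed to expected positive occurrences ran from 0.921 in Gm10789 to 1.11 in 1700020L24Rik, with 8 above 1. No gene passed the test of a changed positive share.

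**Figure D4:**
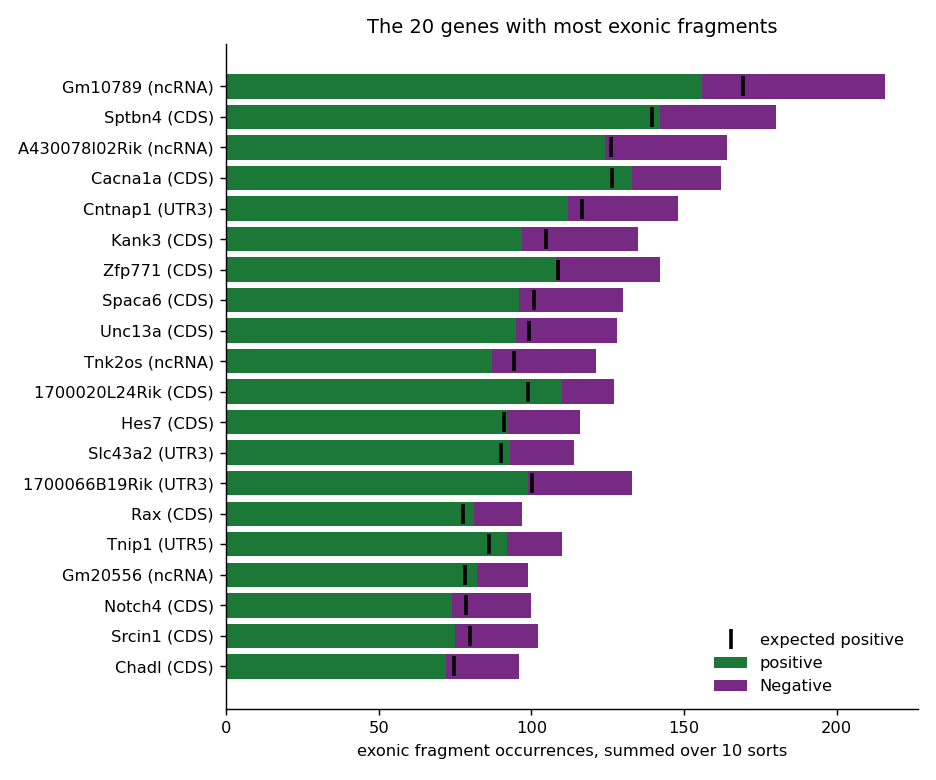
Occurrences of exonic fragments of the 20 genes with most of them, summed over 10 sorts, with positive occurrences in green and negative in purple; the main kind of exon is in brackets. The black tick is the number of positive occurrences expected from the positive share of each sort, and it lies near the green edge in all 20 genes, from 0.921 to 1.11 as observed over expected.

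To ask whether any exonic stretch was more or less often positive than its sort, overlapping fragments were merged into regions and each region with at least 20 occurrences went into a Cochran-Mantel-Haenszel test stratified by sort, which takes fragments, not cultures, as units. Of all 5530 regions tested, 10 (0.181%) passed an adjusted p of 0.05, all with fewer positive fragments. Of 361 exonic regions none passed. At an unadjusted p under 0.05 6 exonic regions had more and 8 had fewer positive fragments than expected, where 0.886% and 2.57% of all tested regions lay on these sides. The exonic regions had a median observed over expected of 0.997, and all regions 0.999. With exonic fragments summed by gene, 0 of 367 genes (0%) passed the adjusted threshold and 15 had an unadjusted p under 0.05 (4 more, 11 fewer positive).

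The exonic regions with the lowest p on the side of fewer positive fragments were Tmem200c (54 positive, 62.8 expected), Mmp25 (27 and 33.8), Ccdc97 (68 and 77.9), Gm13830 (17 and 22.2) and Gm10789 (156 and 169.2), where the expected count comes from the positive share of all fragments of each sort. Tmem200c encodes a membrane protein and Mmp25 a membrane-bound metalloproteinase. On the side of more they were Dmrt3 (31 and 25.5), a transcription factor gene, the region of 1700020L24Rik and Mmp28 (125 and 114.1), Slc13a3 (33 and 27.5), which encodes a dicarboxylate transporter, Cpt1c (59 and 51.7) and Dnaaf3 (26 and 21.3). All 10 had an adjusted p of 1 in the Cochran-Mantel-Haenszel test. In replicate 2 several of them had few or no fragments, and without replicate 1 the ratio of Tmem200c went from 0.860 to 1.01.

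**Figure D5:**
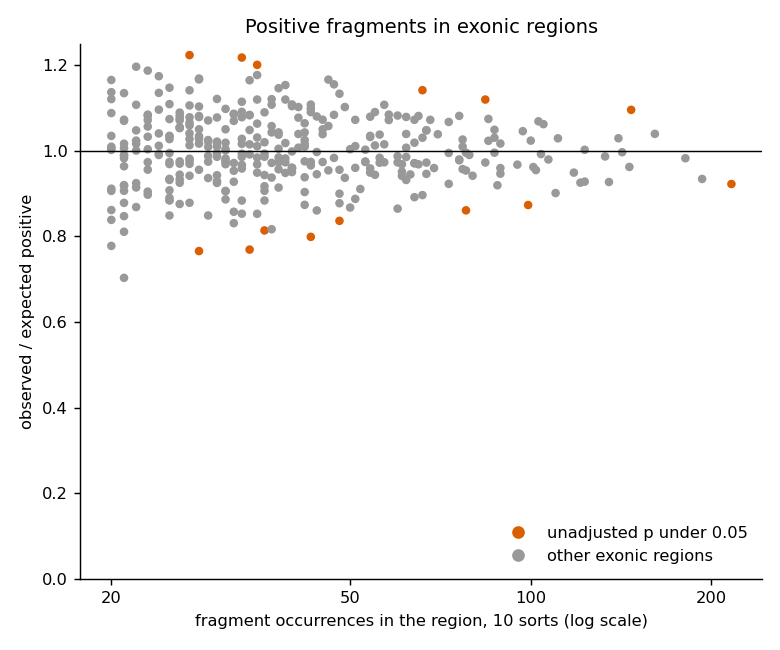
Observed over expected positive fragments (vertical axis) against the number of occurrences (horizontal axis, log scale) for 361 exonic regions with at least 20 occurrences. Regions with an unadjusted p under 0.05 are orange (6 above and 8 below 1), and the spread narrows toward 1 as occurrences rise.

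Genes of the blood and vessel programme were then looked at as lists. Of 32 blood and endothelial transcription factors 14 had exonic fragments, 100 in all, with 91 positive and 31 negative occurrences (93.9 positive expected). Tal1, a factor needed for the first blood cells, had 26 fragments, 25 of them at chr4:115063007-115063565. It had 26 positive and 5 negative occurrences (24.9 positive expected), and was positive at all 5 stages in replicate 1 and in HE1 of replicate 2. The whole region of overlapping fragments, with those outside exons, had 27 positive and 9 negative occurrences (28.6 positive expected). Sox17, a factor of arterial and hemogenic endothelium, had 21 fragments with 12 positive and 11 negative occurrences (16.2 expected), of which HE1 of replicate 1 gave 7 and 7. Lyl1, a relative of Tal1, had 20, all in its 3′ untranslated region, with 19 against 4 (17.8 positive expected). The median distance to a GENCODE start was 314 bp in Sox17, 2999 bp in Lyl1 and 3774.5 bp in Tal1. None of the 4 genes of this list with at least 20 occurrences passed, and the median observed over expected was 0.966, beside 0.999 over the 367 genes tested.

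Of 20 endothelial and blood surface genes 9 had exonic fragments (87 in all). Itga2b, which encodes CD41, which with KIT and TIE2 served to separate HE1, HE2 and HP, had 46 coding fragments with 41 positive and 14 negative occurrences (41.3 expected), and was positive at all 5 stages in replicate 1. Plvap, an endothelial gene, had 19 and Vwf 12. The median distance to a GENCODE start was 210.5 bp in Itga2b, 125 bp in Vwf and 3898 bp in Plvap. Of 16 Notch pathway genes 7 had exonic fragments (122), with 116 positive and 45 negative occurrences (123.0 expected), led by Notch4 and by Notch3 with 27. Of 20 basement membrane and adhesion genes 13 had them (57), most in Vcl, which encodes the adhesion protein vinculin (40 fragments, 37 positive and 15 negative). Of 14 TEAD and Hippo genes 5 had them (41), led by Tead4 with 20 and Tead3 with 13.

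AP-1 genes had few exonic fragments, 10 in 4 of 10 genes, with 10 positive and 2 negative occurrences (6.65 positive expected). Jun had 5, with 7 positive (3.19 expected) and 0 negative occurrences, all in replicate 2 and 4 of them in HP; these are too few for the test. Of 16 pluripotency genes 3 had exonic fragments (71), mostly Klf4, a reprogramming factor, with 54 at chr4:55529639-55531074 and 60 positive against 18 negative occurrences (60.4 expected). Of 18 TGF-beta and BMP genes 4 had them (8), and of 22 chromatin regulators 9 (27), with 30 positive and 5 negative occurrences (26.9 expected).

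Among gene families, 52 of 403 Zfp genes had 430 exonic fragments, with 429 positive occurrences against 424.5 expected. Hox genes had 40 in 9 of 43 genes. Hoxb8, a factor of axial patterning, had 25 of these, with 23 positive and 13 negative occurrences (28.3 expected), which did not pass after adjustment over 367 genes. Pcdh genes shared exons, so that 22 fragments counted for 42 of 70 genes, and genes whose symbol starts with Rpl or Rps and a digit, a list that also takes in kinase genes such as Rps6kl1, had 29 fragments in 6 of 105. No gene in any of the 13 lists passed the adjusted threshold. The lists had 5.71% (Rpl and Rps symbols) to 65% (basement membrane and adhesion) of their genes with an exonic fragment, beside 13.9% of all curated genes.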

How the data were processed

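HM-1 cells with the reporter were sorted by the authors and the cassette insert was amplified and sequenced as read pairs. Per the methods the authors trimmed the reads (Trim Galore), aligned them to mm10 (Bowtie2), kept properly paired reads of high mapping quality (SAMtools), reduced repeated fragments to 1 and filtered them (bedtools, HOMER); versions for these steps are not given in the sources used here. The filters in the methods are a background library of untransfected cells, open chromatin and distance from start sites, and which of them each deposited list had passed is not stated; this bears on every share of exonic fragments. The deposited values are start and end positions of fragments, with no read counts, so depth is the number of fragments (654 to 51146 a library).

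Each fragment was placed by its centre on 45756 curated RefSeq transcripts of GRCm38, with coding exon before 3′ and 5′ untranslated and non-coding exon. GENCODE vM21 gave the wider set of starts. Positive and negative fragments were compared over 10 sorts by exact permutation within stages (7776 arrangements), with Benjamini-Hochberg adjustment, in Python 3.11.15 with numpy 2.4.6, pandas 2.3.3, pyranges 0.1.4 and scipy 1.17.1. Fragments within 5 bp at both ends can be 1 molecule with shifted ends; 5.37% of exonic occurrences were such. Genes named are the 20 with most exonic fragments, the 5 regions of lowest p each way and up to 3 of each of 13 lists. The fragments and lists were chosen with earlier results of these data known. The comparisons of length, CpG and GENCODE starts were added after the data were seen. Scripts were tested on simulated data.

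Replicate numbers were checked as pairs. The difference between replicates correlated between gates of the same stage at 0.200 to 0.577 over 1983 regions. Over all 190 pairs of stage and gate, most of them from different stages, the median was 0.235. In HP the values within the stage, 0.200 to 0.328, lay on both sides of that median. The correlation was thus not particular to gates of 1 stage. Gates of 1 sort were taken as paired in an alternative. The labels do not say whether the replicates came from separate transfections, and the p-values measure the spread between these samples. Libraries of the same replicate number shared on average 13.6% of exonic fragments, and those of different numbers 1.07%. The permutation tests take sorts as independent units, and the sorts of 1 replicate may not be. Exchange within a stage also mixes its 2 replicates, so where these stood far apart a small difference could not pass.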

Additional observations from a re-analysis of the deposited data

Results flagged for a closer look

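The difference between positive and negative in the share of 5′ untranslated exonic fragments varied between stages (exact test over all pairings of the sorts, p = 0.00741, 13 such measures looked at). In percentage points it was 0.0941 and 0.0399 in the replicates of ES, -0.0938 and -0.158 in HB, -0.0402 and -0.0268 in HE1, 0.0427 and 0.0268 in HE2, and -0.0626 and -0.0103 in HP. The sign was the same in both replicates at each of the 5 stages, and the shares rest on few fragments (671 different ones in all).

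The difference in median length between positive and negative exonic fragments stood apart in HE1 of replicate 2, at 110.5 bp (337 against 226.5 bp), both among the 10 sorts and among the 5 of replicate 2. In that sort 1 library, Low, held 1757 of the 1931 positive exonic fragments, with a median of 344 bp. The medians of its Medium and High libraries were 232 and 251 bp. Of 43 groups looked at for such a gap, chance gives about 1 in 20.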

How the results depend on the processing

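Of the differences between positive and negative, none passed its test under any alternative. With fragments in both gate classes left out, the difference was 0.0861 for 3′ untranslated and 0.00560 for non-coding exons, a change of sign. The positive share of exonic minus other distal fragments was -0.0761 with near-identical fragments collapsed and -0.161 with at least 50% of the bases exonic. With a replicate or a sort left out the ranges were -0.153 to 0.0287 (exonic), -0.137 to 0.0193 (coding), -0.0513 to 0.0630 (3′), -0.0819 to 0.0448 (non-coding) and -0.155 to 0.188 (positive share), -0.285 to 0.687 (High minus Low) and -10.6 to 28.6 bp (length). GC content was 6.41 to 7.34 points, CpG 0.183 to 0.236, the GENCODE share 15.3 to 15.8 and length 13.2 to 33.1 bp higher in exonic fragments; with 1 replicate the exact p cannot go below 0.0625, so these and the motif count (0 to 9) then miss the threshold. Under the replicate block the exonic share differed by -0.0988 (p = 0.842, exact permutation) and the length difference of 23.15 bp passed (p = 0.00195); no other call changed. CTCF changed sign against intronic fragments (0.0157), at 150 to 250 bp (0.0264), as a percentage of fragments (0.419) and over the leave-out range of -0.0287 to 0.0281; C/EBP ranged from -0.000835 to 0.00626. The E-box did not pass at 150 to 250 bp, PU.1 not against intergenic fragments or without most single sorts, and RBPJ not as a percentage of fragments. Tmem200c ranged from 0.769 to 1.01. Stages could not be tested with 1 replicate. The leaving out of fragments near GENCODE starts and the sum by gene were chosen after seeing the data. The causes were not tested. Smaller lists limit replicate 2.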
